A study of Mus musculus with 6 samples.

Results

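The genes described here are 4 connexins, Gja1 (Cx43), Gja4 (Cx37), Gja5 (Cx40) and Gjc1 (Cx45), with Nr2f1 and Nr2f2, which encode the nuclear receptors COUP-TFI and COUP-TFII, and Bmx, which encodes a Tec-family tyrosine kinase. They were taken by symbol, with earlier results of these data known, and all 7 were present once among the 22958 gene entries of each library. RNA had been sequenced from brain endothelial cells sorted for CD31 (PECAM1) from C57BL/6 x 129/Sv mouse embryos at E11.5 (embryonic day), after tamoxifen had been given to the mothers at E9.5. The 3 control libraries carried the genotype Cdhrs5CreERT2:R26Axin1IL-/- and had wildtype Axin1 expression. The 3 Axin1 libraries carried Cdhrs5CreERT2:R26Axin1IL+/- and overexpressed Axin1, which scaffolds the beta-catenin destruction complex. The Cre line and tamoxifen were thus common to both groups. Libraries within a group are labelled as biological replicates, and the labels do not give litters or pools. The p-values thus set each group difference against the spread between these libraries, which may not be that between litters. The series asked how overexpressing Axin1 changes expression in these cells.

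Connexins form gap junction channels, which pass ions and small molecules between neighbouring cells. In blood vessels Gja4 and Gja5 are known mainly from arterial endothelium, Gja1 from endothelial and mural cells, and Gjc1 from smooth muscle and the early embryonic vasculature. Nr2f2 is a known regulator of venous identity that acts against Notch signalling, Nr2f1 is its close relative, and Bmx is used as a marker of arterial endothelium.

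Library totals ran from 10772492 to 14234409 reads assigned to genes. Axin1 lay at 69.4 ± 9.24 CPM (TMM-normalised CPM, reads scaled to a common library size; SD, n = 3) in the Axin1 libraries and at 21.1 ± 3.74 CPM (SD, n = 3) in the controls, and these groups did not overlap. All 16 pan-endothelial markers were tested, their summed level was 11669.1 to 13747.5 CPM over the 6 libraries, and 0 of them passed the edgeR test, 3 having an unadjusted p under 0.05 (17.2% of all tested genes did). Macrophage and microglia markers, of which 13 of 13 were detected, summed to 290.7 CPM in Axin1 library 1 but to 1477.7 and 3083.9 CPM in Axin1 libraries 2 and 3, against 527 to 1022.5 CPM in the controls. Erythroid markers summed to 243.4 to 3033 CPM, and megakaryocyte markers to 734.5 to 2545.6 CPM. Hba-a1 had 2 entries, of which only the first, at 0 in every library, entered the erythroid sum. Its level as a gene is therefore not given. In bulk RNA, fewer cells of a type and less RNA per cell cannot be told apart.

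The 250 bases before the start site of the 3 most abundant connexins and of Nr2f2 are shown because these 4 had the most reads of the 7 genes. They are RefSeq sequences of build GRCm38.p6, whereas the counts were made on mm9, and 6 of the 7 genes had an entry. Capitals mark the matches to a set of motifs searched on both strands, which did not overlap each other: CTTTGAT and CTTTGAA (TCF/LEF), AGGTCA (nuclear receptor half-site), TGGGAA (RBPJ), CCGGAA (ETS), ACAATG (SOX), GGGCGG (GC box) and TGAGTCA (AP-1).
Gja4: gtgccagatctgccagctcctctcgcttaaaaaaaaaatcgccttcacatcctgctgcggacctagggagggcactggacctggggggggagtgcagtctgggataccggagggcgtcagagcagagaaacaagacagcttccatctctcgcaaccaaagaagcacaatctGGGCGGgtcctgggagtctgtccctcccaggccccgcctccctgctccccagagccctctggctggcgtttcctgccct
Gja5: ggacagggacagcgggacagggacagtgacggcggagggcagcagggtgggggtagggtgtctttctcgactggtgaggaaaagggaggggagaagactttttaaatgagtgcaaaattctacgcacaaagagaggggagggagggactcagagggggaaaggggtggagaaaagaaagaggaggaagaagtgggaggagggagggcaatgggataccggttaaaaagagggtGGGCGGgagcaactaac
Gja1: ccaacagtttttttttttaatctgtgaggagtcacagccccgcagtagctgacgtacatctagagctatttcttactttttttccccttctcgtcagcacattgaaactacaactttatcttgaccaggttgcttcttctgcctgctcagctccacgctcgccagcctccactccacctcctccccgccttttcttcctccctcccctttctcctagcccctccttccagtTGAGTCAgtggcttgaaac
Nr2f2: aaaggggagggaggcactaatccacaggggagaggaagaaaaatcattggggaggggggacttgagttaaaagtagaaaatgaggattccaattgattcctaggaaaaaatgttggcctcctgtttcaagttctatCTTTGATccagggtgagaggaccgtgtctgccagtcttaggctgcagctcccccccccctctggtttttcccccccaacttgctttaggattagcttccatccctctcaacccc
The Gja4 window, chr4:127314040-127314289 (- strand), held 1 GC box that began 79 bases before the start. Gja5, at chr3:97032152-97032401 (+ strand), also held 1, beginning 17 bases before it, and 32.7% of the 32851 RefSeq windows of this length contained a GC box. Gja1, at chr10:56377050-56377299 (+ strand), held 1 AP-1 match, found in 4.46% of windows. A CTTTGAT match stood 114 bases before the listed start of Nr2f2, at chr7:70366747-70366996 (- strand), and 3.21% of windows had one. Each match describes letters in a window and not a bound site. The GC box and AP-1 letters were chosen after the windows had been read, so their shares cannot show that a match is unusual. Several motifs were searched in each of several windows, so the share for CTTTGAT cannot show it either.

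Among the 7 genes Gja4 showed the lowest fold change between Axin1 and control libraries, with levels about 2-fold lower, while Gja1 lay slightly lower and Gja5, Gjc1, Nr2f1, Nr2f2 and Bmx overlapped between groups. In edgeR's quasi-likelihood fit 0 of 7 passed an adjusted p of 0.05, where 0.845% of 12661 tested genes did (0.490% lower and 0.355% higher in the Axin1 libraries). At an unadjusted p under 0.05 there was 1, Gja4, where 17.2% of all tested genes had such a p. DESeq2 called 1, again Gja4, against 6.58% of genes, and limma on log2 RPKM called 0. In 2 of the 7, Gja1 and Gja4, all Axin1 libraries lay below all controls, which held for 12.4% of tested genes. None lay wholly above, against 11.3% of tested genes.

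**Figure D1:**
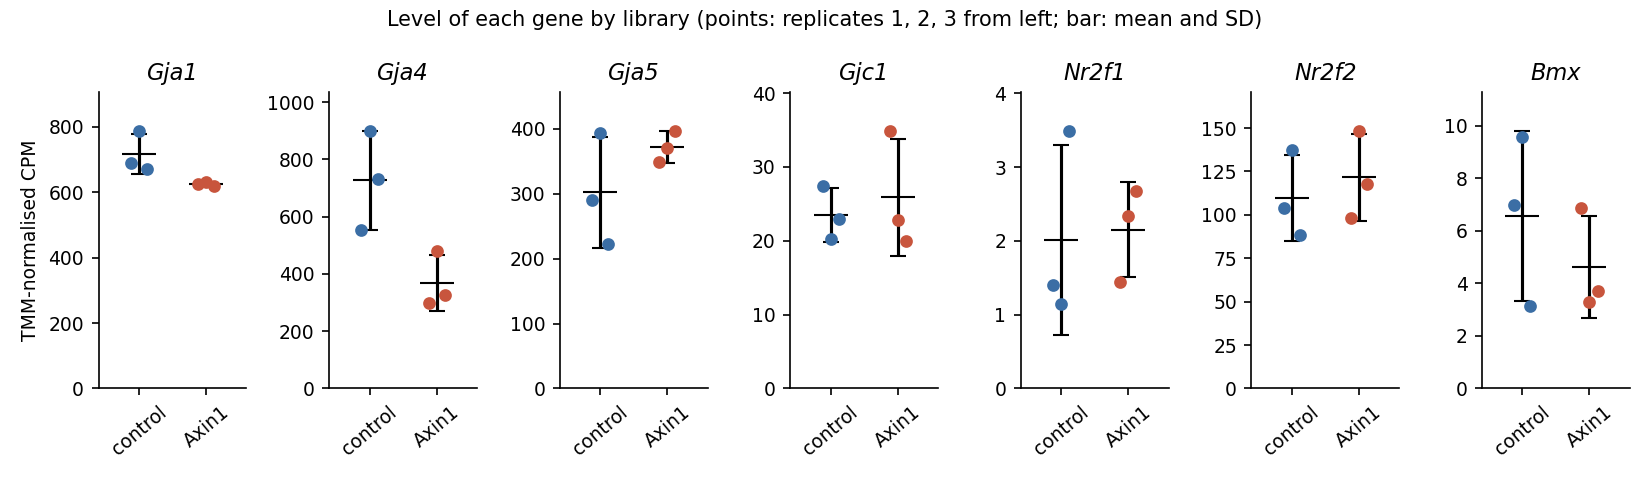
Normalised level (CPM, linear axes from 0, 1 scale per gene) of the 7 genes in the 3 control and 3 Axin1 libraries, with the mean and SD as bars. The groups are apart for Gja1 and Gja4, with Gja4 at 552.8 to 898.3 CPM in controls and 297.7 to 481.2 CPM in Axin1 libraries, and overlap for the other 5 genes.

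Gja4 encodes Cx37, a connexin of arterial endothelium. Its level was 552.8, 898.3 and 731 CPM in controls 1 to 3 and 297.7, 481.2 and 327.9 CPM in Axin1 libraries 1 to 3. Replicate 2 was the highest library of each group, and the lowest control stood above the highest Axin1 library. The group means were 727 ± 173 and 369 ± 98.4 CPM (SD, n = 3 each), a 1.97-fold lower level in the Axin1 libraries. On the log2 scale the difference was -0.98 (SE 0.23, 95% confidence interval -1.53 to -0.43), and edgeR's adjusted p was 0.111 with an unadjusted p of 0.00385 (lower in 3 of 3 Axin1 libraries than in any control). DESeq2 gave -0.98 with an adjusted p of 6.8e-04, so these 2 tools differed in the call. With a replicate block edgeR also called Gja4 (adjusted p 0.0145 by description number, 1.1e-05 by title number in fewer libraries). The labels do not say that these numbers mark pairs.

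**Figure D2:**
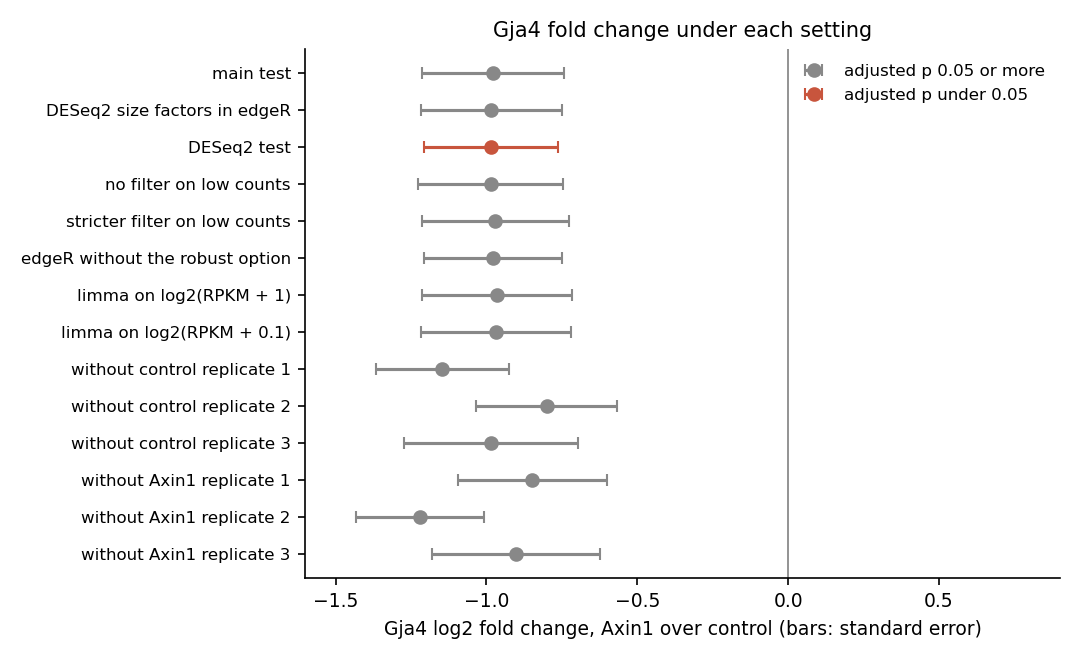
Log2 fold change of Gja4, Axin1 over control, under the main test and the 13 alternatives that use no replicate block, with the standard error as bars and red points for an adjusted p under 0.05. Every point lies between -1.22 and -0.80, and of these 14 fits the DESeq2 test passes. The blocked fits, which also pass, are not drawn.

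Gja1 encodes Cx43, the most widely expressed connexin. It lay at 690.8, 788.6 and 672 CPM in the 3 controls, in replicate order, and at 624.4, 630.3 and 620.6 CPM in the Axin1 libraries. The Axin1 libraries were close together, and the gap to the lowest control was small. Means were 717 ± 62.6 and 625 ± 4.91 CPM (SD, n = 3 each), a log2 fold change of -0.20 (95% confidence interval -0.42 to 0.03, edgeR adjusted p 0.352).

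Gja5 encodes Cx40, the other arterial connexin, and its sign was opposite to that of Gja4. It lay at 290.6, 392.9 and 222.7 CPM in the controls and at 348.9, 370 and 397.1 CPM in the Axin1 libraries. Control 2 stood within the Axin1 range and controls 1 and 3 below it. Means were 302 ± 85.6 and 372 ± 24.2 CPM (SD, n = 3 each), with a log2 fold change of 0.30 (95% confidence interval -0.14 to 0.74, edgeR adjusted p 0.473). Without control 2 the log2 fold change was 0.53 and the edgeR adjusted p 0.284, and without control 3 they were 0.11 and 0.734. In the annotation, exons of Gja5 overlap those of Gpr89 on the opposite strand, so its count is uncertain where strand was not used.

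Gjc1, which encodes Cx45, had far fewer reads, with 27.5, 20.2 and 22.9 CPM in the controls and 34.9, 22.9 and 20 CPM in the Axin1 libraries. Axin1 library 1 was the highest of the 6 and Axin1 library 3 the lowest. The log2 fold change was 0.14 (95% confidence interval -0.40 to 0.68, edgeR adjusted p 0.811). It changed sign, to -0.14, without Axin1 library 1.

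Per kilobase of gene model, the scale on which genes can be compared, Gja4 was the connexin of highest level in the controls. Its RPKM was 328, 548 and 450 in controls 1, 2 and 3, which placed its mean at rank 236 of 12661 tested genes. Gja1 followed at 215, 252 and 216 RPKM and Gja5 at 90.1, 125 and 71.6 RPKM, and the ranges of these 3 genes did not overlap. Nr2f2 (24 to 37.4 RPKM) and Gjc1 (7.9 to 12.2 RPKM) came next, also without overlap. Bmx (1.04 to 3.16 RPKM) and Nr2f1 (0.47 to 1.44 RPKM) were the lowest, with ranges that overlapped.

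In the Axin1 libraries the order of the means was the same, but Gja4 and Gja1 no longer separated. Gja4 read 181, 300 and 199 RPKM and Gja1 199, 205 and 197 RPKM in Axin1 libraries 1, 2 and 3, so that Gja4 was above Gja1 in 2 of 3 Axin1 libraries against 3 of 3 controls. Gja5 read 111, 120 and 126 RPKM. The rank of the Gja4 mean was 454 of 12661. The deposited RPKM of Gjc1 was not a fixed multiple of its reads: reads per RPKM, relative to the common factor of each library, varied between 0.732 and 1, so its RPKM and its count can order libraries differently.

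Ratios within a library do not depend on how libraries are scaled to each other. The RPKM ratio of Gja4 to Gja5 was 3.64, 4.38 and 6.28 in controls 1, 2 and 3 and 1.63, 2.49 and 1.58 in Axin1 libraries 1, 2 and 3. Every control ratio was above every Axin1 ratio. Gja4 over Gja1 went from 1.93 ± 0.349 to 1.13 ± 0.292 (SD, n = 3 each), and Gja5 over Gja1 from 0.416 ± 0.0833 to 0.594 ± 0.0411 (SD, n = 3 each), again without overlap. Against Pecam1, which encodes the CD31 used in the sort, Gja4 had ratios of 0.871 to 1.25 in the controls and 0.451 to 0.822 in the Axin1 libraries. Gja4 over Cdh5, another endothelial marker, was 2.12 to 4.39 in the controls and 0.745 to 1.25 in the Axin1 libraries. Cdh5 itself lay wholly higher in the Axin1 libraries (log2 0.68, edgeR adjusted p 0.218), so the size of the Gja4 difference varied with the reference gene. Gja5 over Pecam1 overlapped between groups (0.196 to 0.285 and 0.276 to 0.343). With 3 libraries against 3 these ratios are given as descriptions.

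The whole connexin family of 20 genes was nearly made up of these 4 members. Summed over the family, RPKM was 776 ± 147 in the controls and 560 ± 66.8 in the Axin1 libraries (SD, n = 3 each), without overlap. Gja4 supplied 51, 58.7 and 60% of it in controls 1, 2 and 3 and 35.5, 47.2 and 37.3% in Axin1 libraries 1, 2 and 3. The Gja5 share was 12.3 ± 2.42% and 21.4 ± 2.36% (SD, n = 3 each), and the Gja1 share 29.7 ± 3.27% and 36.1 ± 3.41% (SD, n = 3 each), the last overlapping between groups. Shares are parts of a fixed total, so a lower Gja4 share raises the others without any rise in their level. In RPKM itself Gja5 overlapped between groups, and the Gja1 mean was 227.5 in the controls and 200.4 in the Axin1 libraries. Gja6, close in sequence to Gja1, was the fifth family member to pass the filter, with 0 to 21 reads a library and an edgeR adjusted p of 0.856. The other 15 connexins did not pass it: 7 had no read in any library, among them Gjb1 and Gjd2, and the other 8 had at most 7 reads in a library.

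**Figure D3:**
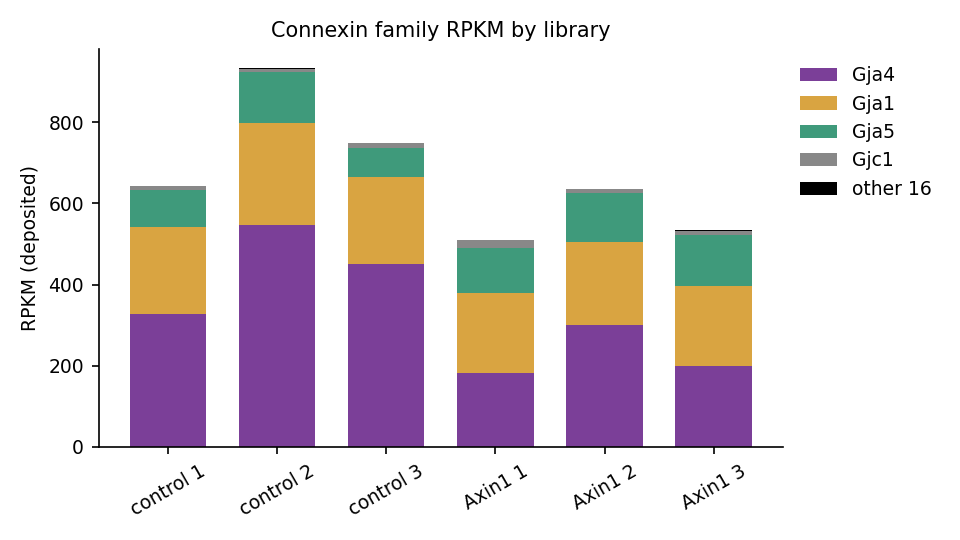
Deposited RPKM (linear axis from 0) of the connexin family in each library, stacked by gene, with the 16 least abundant connexins joined. The bars reach 644 to 934 RPKM in the controls and 510 to 636 RPKM in the Axin1 libraries, and the Gja4 segment is the part that is visibly shorter in the latter.

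Genes that act on connexin channels were read from a list of 10 partners and trafficking factors. By edgeR's test 0 passed over all genes, and 3 had an unadjusted p under 0.05, a share above the 17.2% of all tested genes. DESeq2 called 2, a share above the 6.58% of all genes it adjusted, and limma on log2(RPKM + 1) called 1. The list's median log2 fold change was 0.11 beside 0.02 over all tested genes, and its shares were not tested. Dbn1, which encodes drebrin, an actin-binding partner of Cx43, lay at 53.4, 50.8 and 98.1 CPM in the controls and at 179, 194 and 199 CPM in the Axin1 libraries. Its groups were apart, as for 23.8% of all tested genes. The log2 fold change was 1.50 (SE 0.25), with an adjusted p in edgeR of 0.0519, just over the threshold. Src, a kinase that phosphorylates Cx43, lay at 24.2 to 30.7 CPM in the controls and 15.9 to 16.6 CPM in the Axin1 libraries (log2 -0.71, edgeR adjusted p 0.0916). Cnst, the connexin-trafficking factor consortin, was higher by 0.46 on the log2 scale (edgeR adjusted p 0.247). Tjp1, the ZO-1 scaffold that binds connexin tails, had one of -0.03 (edgeR adjusted p 0.94). Of 3 pannexins, channel proteins distantly like connexins, Panx1 alone was tested (log2 -0.21, edgeR adjusted p 0.786), DESeq2 and limma called 0, and Panx2 had no read.

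Nr2f2 encodes COUP-TFII and was the better expressed of the pair of COUP-TF genes. It lay at 104, 137 and 88.2 CPM in the controls and at 98.4, 148 and 118 CPM in the Axin1 libraries. Replicate 2 was again the highest of each group, and the groups overlapped. The log2 fold change was 0.15 (95% confidence interval -0.31 to 0.61, edgeR adjusted p 0.761), so the interval ran from 0.804-fold to 1.53-fold. Pericyte and mesenchyme markers, cells in which Nr2f2 is also known, were 15 of 15 detected and summed to 66.8, 108 and 180 CPM in controls 1 to 3 and to 136, 212 and 167 CPM in Axin1 libraries 1 to 3. Their part in the Nr2f2 values was not tested.

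Nr2f1, which encodes COUP-TFI, had few reads, with 16, 15 and 38 reads in controls 1, 2 and 3 and 18, 34 and 31 reads in Axin1 libraries 1, 2 and 3. The exact Poisson 95% interval of the lowest count was 8.4 to 24.7 reads, which covers counting error only. Control 3 was the highest library and control 2 the lowest. The log2 fold change was 0.10 with a wide 95% confidence interval of -1.13 to 1.33 (edgeR adjusted p 0.949), and it changed sign in 3 of the 6 fits that left out a library, those without control 1 (-0.10), control 2 (-0.18) or Axin1 library 3 (-0.08). Markers of neural cells, which are known to express Nr2f1, were 13 of 13 detected and summed to 288, 348 and 474 CPM in controls 1, 2 and 3 and to 342 to 366 CPM in the Axin1 libraries. Nes and Stmn2 made up most of that sum, and other markers differed far more between controls: Tubb3 lay at 14.35, 34.6 and 106.3 CPM and Fabp7 at 4.11, 9.43 and 41.9 CPM in controls 1, 2 and 3. In the Axin1 libraries Tubb3 was at 21.5 to 55 CPM and Fabp7 at no more than 18.6 CPM. Of the 8 tested neural markers, Tubb3, Fabp7, Pax6 and Sox2 were highest in control 3, as Nr2f1 was. The others were not: Nes was highest in Axin1 library 1 (235.4 CPM) and Elavl3 in Axin1 library 2 (4.34 CPM). Dcx was highest in Axin1 library 3 (7.95 CPM) and Stmn2 in control 2 (123.6 CPM). The part of neural cells in the Nr2f1 values was not tested. In the annotation, exons of Nr2f1 and Nr2f2 each overlap a gene on the opposite strand.

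Across 15 tested genes of the NR2 family and COUP-TF partners, 0 passed edgeR's test, 3 had an unadjusted p under 0.05 and DESeq2 called 1, near the 17.2% and 6.58% of all genes, and limma called 0, with a median log2 fold change of 0.15. Zfpm2, a FOG-family cofactor that binds COUP-TF proteins, lay at 9.1 to 11.2 CPM in the controls and 15.2 to 23.3 CPM in the Axin1 libraries (log2 0.88, edgeR adjusted p 0.113). Prox1, the lymphatic regulator with which COUP-TFII cooperates, was at 0.963 to 1.69 CPM in the controls and 2.82 to 3.44 CPM in the Axin1 libraries (log2 1.28, edgeR adjusted p 0.177). Both had groups that did not overlap, as for 23.8% of all tested genes. In the list, 1 gene lay wholly lower and 3 wholly higher in the Axin1 libraries. Smarca4, the chromatin remodeller BRG1, had a log2 value of -0.27 (edgeR adjusted p 0.257).

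Bmx was low and scattered. It lay at 7, 9.59 and 3.13 CPM in controls 1, 2 and 3, from 80, 125 and 34 reads, and at 6.87, 3.31 and 3.72 CPM in Axin1 libraries 1 to 3, from 86, 48 and 43 reads. Control 3 was the lowest library of all, Axin1 library 1 lay just under control 1, and the groups overlapped. The log2 fold change was -0.51 (95% confidence interval -1.55 to 0.54, edgeR adjusted p 0.624), and it ranged from -0.91 without Axin1 library 1 to -0.13 without control 2. Of 11 tested Tec kinases and Bmx partners 0 passed edgeR's test, 1 had an unadjusted p under 0.05, a share below the 17.2% of all tested genes, and DESeq2 and limma called 0, with a median of 0.11. That 1 was Stat3, a transcription factor downstream of Bmx, at 93.4 to 125 CPM in the controls and 129 to 192 CPM in the Axin1 libraries (log2 0.56, edgeR adjusted p 0.156). Flt1, a VEGF receptor, had a log2 value of 0.25 (edgeR adjusted p 0.364).

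**Figure D4:**
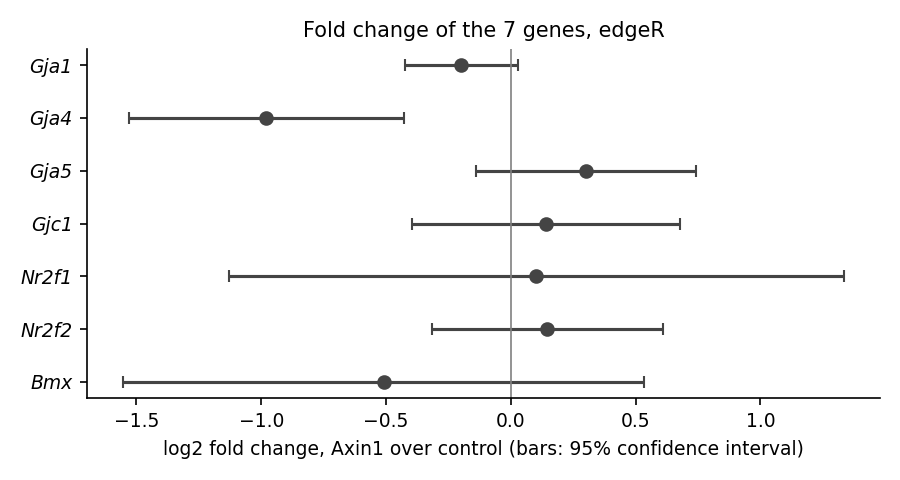
Log2 fold change of the 7 genes, Axin1 over control, with the 95% confidence interval from edgeR's quasi-likelihood fit. The interval lies wholly below 0 for Gja4 (-1.53 to -0.43) and includes 0 for the other 6 genes.

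Gja4, Gja5 and Bmx were also read within a list of 18 arterial genes, of which 17 were tested. In this list 1 gene fell by edgeR's test and 0 rose, where 0.490% and 0.355% of all tested genes did. An unadjusted p under 0.05 was found for 2, a share below the 17.2% of all tested genes, and the median log2 fold change was 0.10 beside 0.02 over all genes, with 11 positive and 6 negative values. The gene that fell was Jag1, a Notch ligand, from 228 ± 10.9 to 137 ± 20.6 CPM (SD, n = 3 each, log2 -0.74, edgeR adjusted p 0.0452). DESeq2 called 2 genes, both lower, where it called 6.58% of all genes, and limma called 0 with either pseudocount. The edgeR count was 0 without the robust option, without control 1, without control 2 and without any 1 of the Axin1 libraries, and 2 without control 3. Gja4 had the lowest log2 fold change of the list and Fbln5, a fibulin gene at under 6 CPM in every library, the highest at 1.90 (edgeR adjusted p 0.304).

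Genes that regulate arterial identity were 18, with 17 tested. By edgeR's test 0 passed, 2 had an unadjusted p under 0.05 and DESeq2 called 1, shares below the 17.2% and 6.58% of all genes, limma called 0, and the median was 0.04 with 9 positive and 8 negative values. Hey1, a Notch target and transcriptional repressor, lay at 24.6, 30.7 and 39.2 CPM in the controls and at 67.1, 53.9 and 52.7 CPM in the Axin1 libraries (log2 0.88, SE 0.19, edgeR adjusted p 0.0793). Notch4, an endothelial Notch receptor, lay at 49.2 to 62.6 CPM in the controls and 33.1 to 44.4 CPM in the Axin1 libraries (log2 -0.51, edgeR adjusted p 0.174). These 2 Notch pathway genes had opposite signs and separate groups, as 23.8% of all tested genes had. In the list, 1 gene lay wholly lower and 2 wholly higher in the Axin1 libraries. Sox7, a SoxF factor, had a log2 value of 0.24 (edgeR adjusted p 0.349).

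Venous genes, the list that holds Nr2f2, were 13, with 12 tested. None passed edgeR's test, 5 had an unadjusted p under 0.05 and DESeq2 called 3, shares above the 17.2% and 6.58% of all genes. Limma called 0, and the median log2 fold change was 0.09 with 8 positive and 4 negative values. In the list, 2 genes lay wholly lower and 2 wholly higher in the Axin1 libraries, against 12.4% and 11.3% of all tested genes. The list was chosen with earlier results of these data known, and its shares were not tested. Flt4, the VEGF-C receptor, lay at 188 to 260 CPM in the controls and 319 to 390 CPM in the Axin1 libraries (log2 0.62, edgeR adjusted p 0.0867). Aplnr, the apelin receptor, lay at 1832.2 to 2106.2 CPM in the controls and 1395.5 to 1656.9 CPM in the Axin1 libraries (log2 -0.39, edgeR adjusted p 0.118). Slc38a5, an amino acid transporter, lay at 14.3, 40 and 61.5 CPM in the controls and at 2, 3.51 and 8.56 CPM in the Axin1 libraries (log2 -3.05, SE 0.75, edgeR adjusted p 0.137). The groups of these 3 genes did not overlap, as for 23.8% of all tested genes. Ephb4, the ephrin receptor used to mark veins, lay at 109 ± 9.96 and 110 ± 28.3 CPM (SD, n = 3 each, log2 0.02, edgeR adjusted p 0.977).

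**Figure D5:**
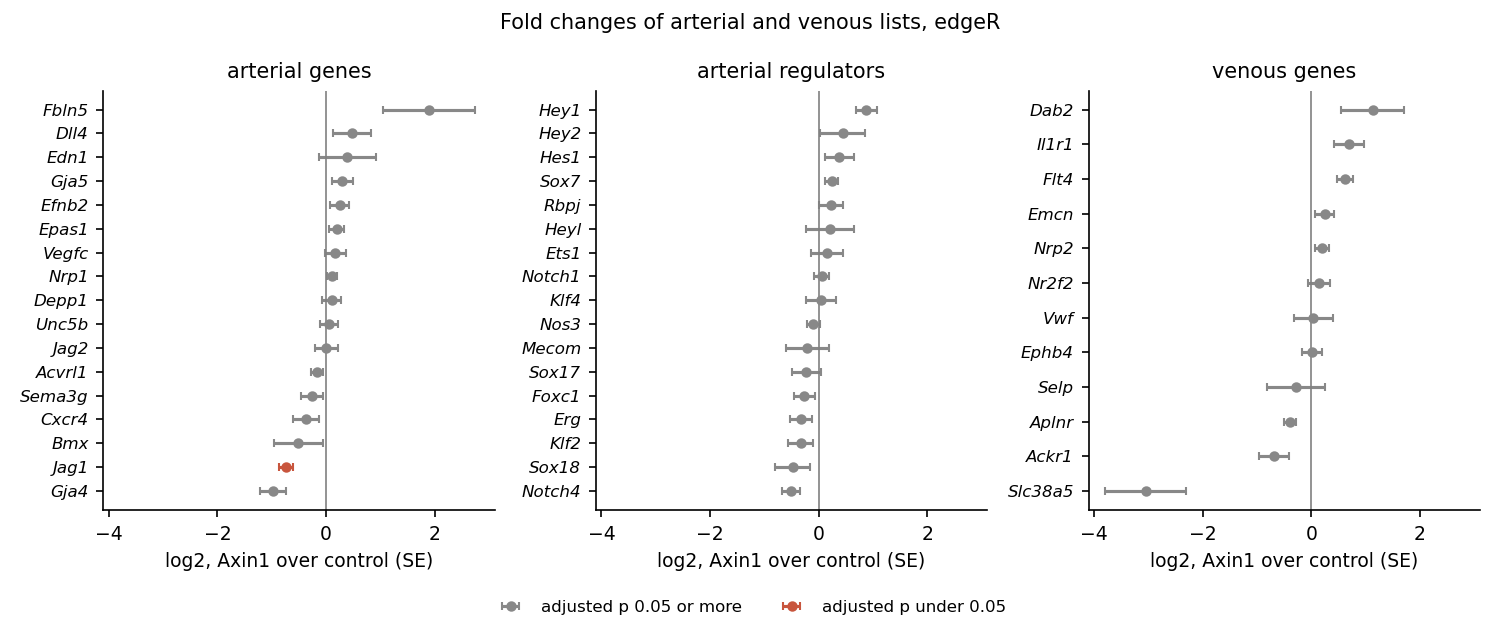
Log2 fold change, Axin1 over control, with its standard error, of the tested arterial genes (17), arterial regulators (17) and venous genes (12), ordered by value. Jag1 alone has an adjusted p under 0.05, Gja4 is the lowest arterial gene at -0.98, and Nr2f2 sits near the middle of the venous list at 0.15.

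The genes whose pattern over the 6 libraries was most like each member were taken by Pearson's r of log2 CPM, from 8347 or 8348 genes of at least 10 CPM. For Gja4 these included Zfp282 (r = 0.988) and Bet1l (0.987), both with smaller fold changes than Gja4 (log2 -0.34 and -0.29), and 44 genes had an r of at least 0.95. Gja5 was most like Fam49b (0.997), Tmf1 (0.991) and Zdhhc20 (0.986). Gja1 was most like Usp32 (0.995), Smarca2 (0.994) and Prkar2a (0.988). For Gjc1 the nearest were Ppat (0.994), Ezh2 (0.992) and Cenpj (0.991), for Bmx Itga9 (0.996), Lrrc57 (0.992) and Mms19 (0.988), and for Nr2f1 Fam125b (0.971), Stox2 (0.968) and Hipk2 (0.966). Nr2f2 was most like Osgepl1 (0.989), Prg2 (0.969) and Epx (0.967). Each r rests on 6 libraries of 2 groups and is a description.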

How the data were processed

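RNA of 6 libraries was analysed, 3 control and 3 Axin1, grouped by their descriptions. Polyadenylated RNA had been purified with a micro-scale column kit and amplified by the SMARTer method, as the labels' protocols state. The authors deposited read counts and RPKM/FPKM values for 22958 RefSeq gene entries per library, per the file headers. Bowtie and the mm9 build are named without versions, per the submitters' processing notes; for the counting program and the use of strand, the sources used here give no statement. Deposited counts were tested as they stood with edgeR 4.0.16 (R 4.3.3): TMM normalisation, filterByExpr (minimum count 10, minimum total 15, leaving 12661 genes), a robust quasi-likelihood fit without covariates and p-values adjusted by Benjamini and Hochberg's method across the tested genes, called at 0.05. Intervals are 95% confidence intervals and CPM values are given as mean ± SD. The deposited RPKM values, per length, served to compare genes. Alternatives were DESeq2 1.42.0 (test, and size factors), limma 3.58.1 on log2 RPKM with pseudocounts of 1 and 0.1, no or a stricter filter, a non-robust fit, leaving out each library, and replicate blocks. The fit was tested on simulated data. Chi-square per degree of freedom between libraries was 16.4 to 61.3, so none was a copy of another.

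The members and lists were chosen with earlier results of these data known, and the GC box and AP-1 letters after the promoter windows had been read. Genes named are the 7 members, Axin1, each list's called genes and those of smallest p, and the 3 of highest r per member; some genes that this rule names are not reported here. Tjp1, Ephb4, Panx2, Gja6, Gjb1 and Gjd2 were named after their values were seen. Promoter windows were matched by symbol in RefSeq GRCm38.p6 and overlapping exons were taken from GENCODE on GRCm38. Apart from the promoter windows, no gene coordinates are given because the counts are on mm9.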

Additional observations from a re-analysis of the deposited data

How the results depend on the processing

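The log2 fold changes of Gja1, Gja4, Gja5 and Bmx kept their sign under all 15 alternatives. Leaving out 1 library gave ranges of -0.26 to -0.13 for Gja1, -1.22 to -0.80 for Gja4, 0.11 to 0.53 for Gja5, -0.14 to 0.30 for Gjc1, -0.18 to 0.74 for Nr2f1, -0.025 to 0.34 for Nr2f2 and -0.91 to -0.13 for Bmx, with no edgeR adjusted p under 0.05. For Gja4 the edgeR adjusted p in these fits was 0.142 to 0.302. The same fits gave 0 to 695 changed genes in all, against 107 with all libraries (0 without control 2 or Axin1 library 2, 10 without control 1, 33 without Axin1 library 1, 18 without Axin1 library 3). They gave 0 to 2 changed arterial genes, and 0 to 1 changed connexin partners, arterial regulators or venous genes.

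DESeq2 called 720 genes in all, with 1 member and 1 connexin (Gja4, log2 -0.98), 2 connexin partners, 2 arterial genes, 1 arterial regulator, 3 venous genes and 1 gene of the NR2 list. Without a filter on low counts edgeR called 197 genes, with 1 connexin partner, 1 arterial gene and 1 arterial regulator. Without the robust option it called 51 genes and 0 arterial genes. Limma on log2 RPKM called 1 connexin partner and 0 arterial genes with either pseudocount. The cause of these differences was not tested.

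The numbers in the descriptions and titles are not said to mark a litter or day. Deviations from group means correlated at 0.238 and 0.198 between the 2 pairs of libraries with the same title number, at -0.149 for replicate number 3 and at 0.277 for control 2 with Axin1 library 3, which share no number (8870 genes). Title numbers could give only 2 pairs, and both lay above 0.1. So did control 2 with Axin1 library 3, and control 3 with Axin1 library 2 (0.129), which also share no number. These correlations thus cannot decide whether the numbers mark pairs. The main test used no block because the labels do not say what the numbers mark. With a replicate block by description number edgeR put Gja4 at -0.98 on the log2 scale with an adjusted p of 0.0145. It then called 105 of 12661 genes, with 1 member, 1 connexin, 1 connexin partner, 1 arterial gene and 1 venous gene. In the 4 libraries that share title numbers, blocked by that number, Gja4 had -0.90 (edgeR adjusted p 1.1e-05). That fit called 1500 genes in all, with 1 member, 1 connexin, 1 connexin partner, 3 arterial genes, 2 arterial regulators, 4 venous genes, 1 gene of the NR2 list and 1 of the Tec kinase list.

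Nr2f1 and Bmx had the fewest reads of the 7 genes, 15 to 38 and 34 to 125 a library. Their spread was not counting error alone: the exact Poisson 95% intervals of controls 1 and 3 did not overlap for Bmx (63.4 to 99.6 and 23.6 to 47.5 reads) or Nr2f1 (9.15 to 26 and 26.9 to 52.2 reads). With 3 libraries a group, the intervals of Nr2f1 and Bmx include more than 2-fold differences in at least 1 direction.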

Other observations

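Prg2 and Epx, whose pattern was like that of Nr2f2, encode eosinophil granule proteins and were nearly absent from several libraries. Prg2 lay at 0.35, 54.2 and 0 CPM in controls 1 to 3 and 0.16, 93.7 and 19 CPM in Axin1 libraries 1 to 3. Epx lay at 1.84, 21 and 0 CPM in the controls, and the Axin1 libraries had 0, 54.7 and 2.59 CPM. Replicate 2 of each group, which had the highest Nr2f2 and Gja4 levels of its group, was also highest for both of these genes.

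Lymphatic endothelial markers, which share Prox1 with the COUP-TF partners, were 4 of 4 detected and summed to 218 to 289 CPM in the controls and 345 to 453 CPM in the Axin1 libraries, without overlap. Flt4 made up most of that sum. Lyve1 overlapped between groups and was highest in Axin1 library 3 (106.6 CPM, against 7.67 to 26.7 CPM elsewhere), the library in which macrophage markers were also highest, and Pdpn lay in the opposite direction (log2 -0.86, adjusted p 0.705 in edgeR). By edgeR's test 0 of the 4 passed, 2 had an unadjusted p under 0.05, a share above the 17.2% of all tested genes, and the median log2 fold change was 0.95.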
